A study of Mus musculus with 8 samples.

Results

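Genes of calcium channels, calcium stores, calcium pumps and TRP channels were compared between ductus arteriosus and aorta in mouse fetuses. The ductus arteriosus is the fetal vessel between the pulmonary artery and the descending aorta, and it constricts after birth. The genes were chosen by symbol alone: voltage-gated calcium channel subunits, ryanodine and inositol trisphosphate receptors, calcium ATPases, Orai and Stim, TRPA, TRPC, TRPM and TRPV, the Slc8a exchangers, Pln, Sln, Casq1 and Casq2. The rule found 70 genes among the 18193 that carried exactly 1 symbol. They had 157 probe sets, and 47 of them had more than 1. Where a gene had several, the probe set brightest on average across the 8 arrays stands for it. The rule also takes in Trpc4ap, whose product binds a TRPC channel and is not a channel itself.

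There were 4 arrays of aorta and 4 of ductus. Both tissues came from untreated mice labelled as wild type for CD88, with CD88 also entered as the strain, on day 19 of gestation. Each array held a pool of vessel segments from up to 10 pups of a single litter. Whether arrays of the same number in the 2 tissues shared a litter was not stated in the sources used here. Values are on a log2 scale after robust multi-array averaging (RMA), a standard way to correct, normalize and summarise such arrays. They give relative signal, not copies per cell, so levels of different genes were not ranked. First quartiles of the arrays lay between 2.74 and 2.86, and a value near or under them is not shown to be above background. Between arrays, Pearson correlations over all genes were 0.986 to 0.992 within a tissue and 0.979 to 0.987 across tissues.

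The tissue labels were checked on marker genes. All 10 smooth muscle markers were measured, with a mean of 9.59 to 10.22 on the aorta arrays and 10.38 to 10.82 on the ductus arrays, and 3 of them were higher in the ductus. Tfap2b, a transcription factor of the ductus wall, lay between 2.23 and 2.87 in the aorta and between 7.47 and 7.69 in the ductus. Skeletal muscle markers set ductus replicate 3 apart: the mean of 16 was 5.92 there and 3.57 to 4.15 on the other arrays. Heart muscle markers were highest on aorta replicates 1 and 4, where the mean of 14 was 6.73 and 6.67, against 5.47 and 5.64 on aorta replicates 2 and 3. Mesothelial markers differed between the tissues, with 7 of 8 higher in the aorta. Results that rest on arrays set apart by these muscle or mesothelial markers are given with those values beside them. Adipocyte markers also varied: the mean of 5 was 4.57 on aorta replicate 1, 8.30 on aorta replicate 3 and 5.43 to 6.91 on the other arrays. The part of fat in the results below was not tested.

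Smooth muscle contracts when calcium in the cell rises. Calcium enters through voltage-gated channels, through Orai channels that open when the stores are empty, and through TRP channels, which carry mixed cation currents. It is also released from the sarcoplasmic reticulum through inositol trisphosphate and ryanodine receptors. SERCA pumps return it to the store, while plasma membrane pumps and sodium-calcium exchangers move it out of the cell. In the ductus, oxygen after birth is known to depolarise the muscle and to open L-type channels, which starts constriction.

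Of the 70 genes, Trpm3 was higher in the ductus and Cacna2d3 and Atp2b2 were higher in the aorta. Genes with a limma p under 0.05 after Benjamini-Hochberg adjustment over all 18193 are described as called, and 3.86% of all genes were called: 1.8% higher in the ductus and 2.06% higher in the aorta. The 3 called calcium genes were also the only ones of the 70 with a difference of at least 2-fold, which 2.72% of all genes had. The tissues did not overlap in 7 of the 70 genes, compared with 11.3% of all genes. An unadjusted p under 0.05 was found for 16 of the 70, a larger share than the 16.1% of all genes. The median log2 difference, ductus minus aorta, was -0.10 over the calcium genes and -0.03 over all genes. The median absolute log2 difference was 0.23 over the calcium genes and 0.15 over all genes. The shares called and without overlap are close to those of the whole array. A shift of the group was not tested, so the results below concern single genes. The called count was 5 without aorta replicate 3, where Itpr3 and Trpc1 also passed, and 3 or 4 without any other array. In tissue pools, fewer cells of a type and less RNA per cell cannot be told apart.

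**Figure D1:**
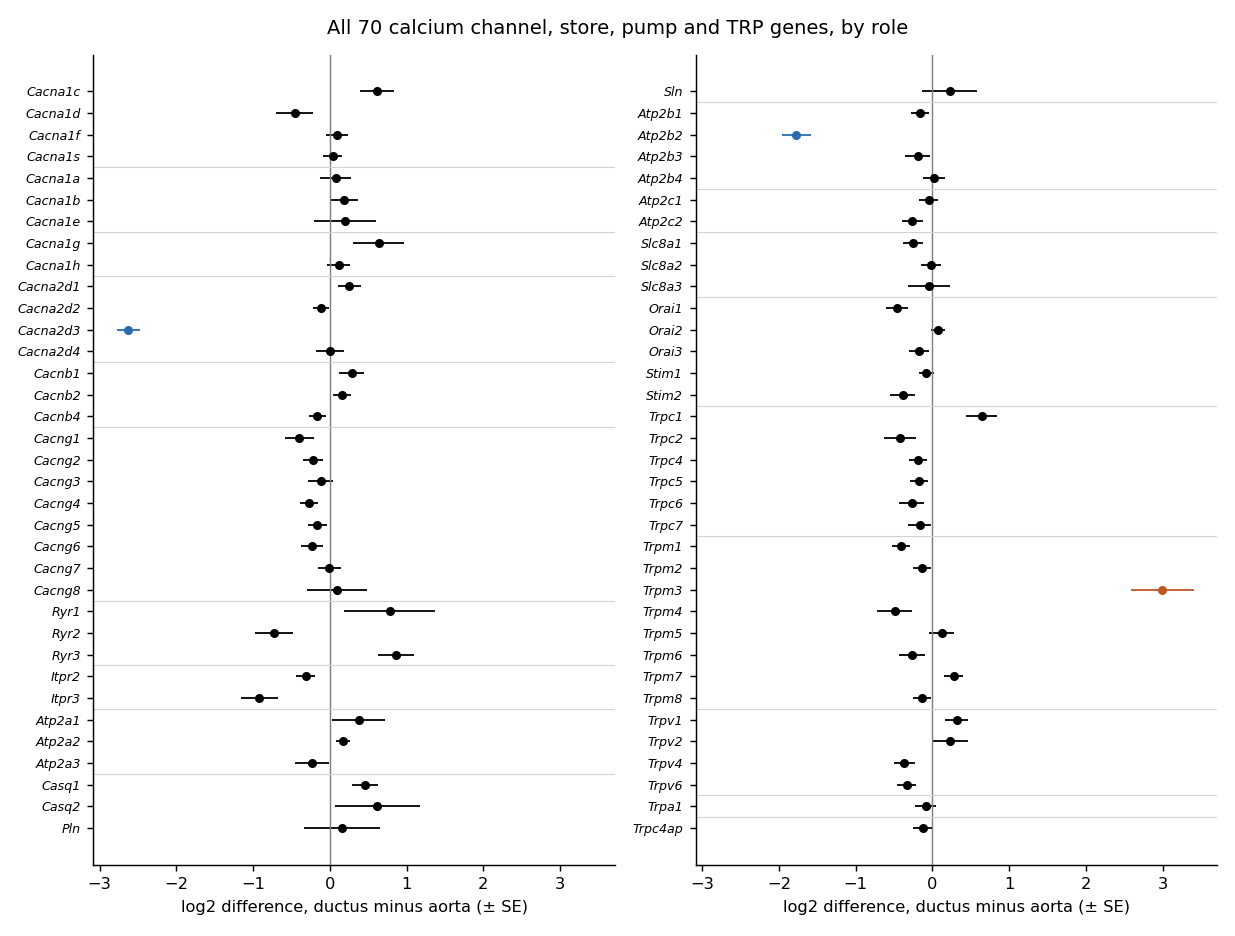
Log2 difference, ductus minus aorta, with its standard error for each of the 70 genes (4 arrays per tissue), grouped by role between grey lines. Trpm3 stands alone on the right at 3.00 (orange, higher in the ductus), and Cacna2d3 at -2.63 and Atp2b2 at -1.77 stand on the left (blue, higher in the aorta), while the other genes lie between -0.92 and 0.86 (black, not called).

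Trpm3 encodes a TRPM cation channel that passes calcium and is opened by the neurosteroid pregnenolone sulfate and by heat. Its values on aorta replicates 1 to 4 were 5.27, 4.06, 4.47 and 3.505. On ductus replicates 1 to 4 they were 6.602, 8.16, 7.55 and 6.97. Every ductus array lay above every aorta array, and the spread within each tissue was wide. The difference was 3.00 ± 0.411 (log2 ± SE, n = 4 each; 7.97-fold, adjusted p = 0.00336).

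Trpm3 had 6 probe sets, and all were higher in the ductus. At the level of probe sets, with limma and the adjustment over all probe sets with 1 symbol, 5 of the 6 were called. Among the called probe sets, log2 differences ran from 1.76 to 3.19. The probe set that was not called differed by 0.43 ± 0.159 (adjusted p = 0.229) and was between 2.56 and 3.56 on all arrays. The Trpm3 call was kept when any of the 8 arrays was left out, with differences of 2.72 to 3.31. Besides smooth muscle (3 of 10), lists with members higher in the ductus were Schwann and glial cells (1 of 6, mean 5.68 to 5.92 in the aorta and 5.93 to 6.18 in the ductus) and airway epithelium (1 of 6, mean 3.23 to 4.23 and 3.88 to 5.08). Of 15 neuron and chromaffin markers (mean 3.48 to 3.71 and 3.64 to 3.78), the vesicle protein gene Syt1 was higher in the ductus and the axon growth gene Gap43 higher in the aorta. Of the glial genes, S100b was higher in the ductus (0.71 ± 0.159, adjusted p = 0.0392), Fabp7 differed by 0.98 ± 0.347 without passing (adjusted p = 0.189), and Sox10 differed by 0.10 ± 0.123 (adjusted p = 0.767). Erbb3 differed by 0.23 ± 0.219, Foxd3 by -0.06 ± 0.102 and Pmp22 by -0.19 ± 0.096, and none of them was called. For Pmp22 every ductus array lay below every aorta array. The part of these cells in the Trpm3 result was not tested.

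**Figure D2:**
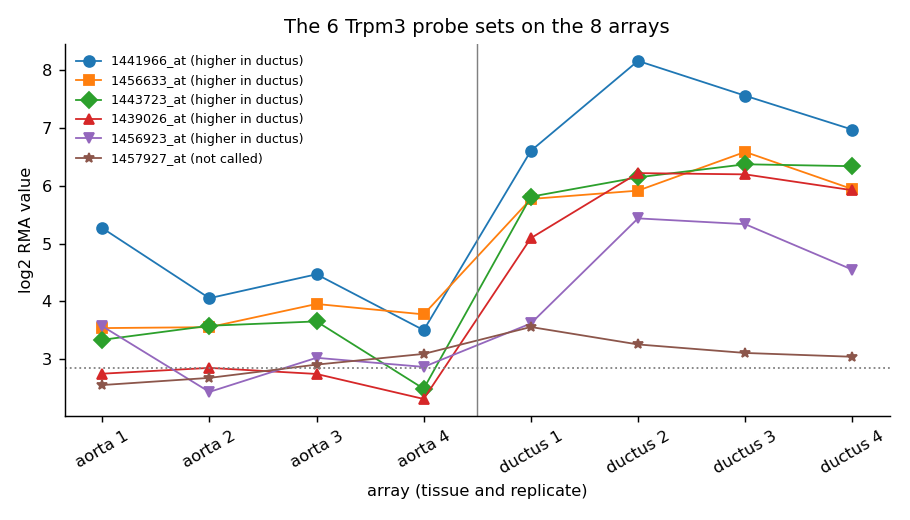
Log2 RMA values of the 6 Trpm3 probe sets on the 4 aorta and 4 ductus arrays, with the highest first quartile of any array (2.86) as a dotted line. Of the 6 lines, 5 step up between aorta replicate 4 and ductus replicate 1 or soon after and were called, while the line of the probe set that was not called stays between 2.56 and 3.56.

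The Trpm3 locus spans chr19:22137797-22995410 (GRCm38.p6), 858 kb, and holds the microRNA gene Mir204 on the same strand, 613 kb from the start of the locus. The level of miR-204 was not analysed here. Its sequences are shown because a host transcript and a microRNA inside it can share a promoter. They come from RefSeq (GRCm38.p6), 5′ to 3′, with the seed (bases 2 to 8) in capitals.
mmu-miR-204-5p: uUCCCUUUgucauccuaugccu
mmu-miR-204-3p: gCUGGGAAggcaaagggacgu

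RefSeq lists 2 Trpm3 starts with a window of 250 bases before to 50 bases after the start. They are shown because the probe sets of this gene moved together. The upstream window is chr19:22138796-22139095 and the downstream window chr19:22447958-22448257, both on the plus strand of GRCm38.p6. The motifs searched on both strands were GCCNNNGGC, the palindrome bound by AP-2 factors such as Tfap2b, the CArG box bound by serum response factor, and TATAAA. Neither window holds any of them, so no base is in capitals. Of 32544 such mouse windows, 16.7% hold GCCNNNGGC, 1.64% a CArG box and 13.6% TATAAA. This says only that these letters are not in these windows.
Trpm3 upstream start: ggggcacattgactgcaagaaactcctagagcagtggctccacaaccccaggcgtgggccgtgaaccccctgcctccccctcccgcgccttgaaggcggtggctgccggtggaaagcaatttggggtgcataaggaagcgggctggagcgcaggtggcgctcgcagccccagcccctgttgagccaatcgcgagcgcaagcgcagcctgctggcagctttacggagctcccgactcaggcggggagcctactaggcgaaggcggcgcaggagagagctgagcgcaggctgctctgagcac
Trpm3 downstream start: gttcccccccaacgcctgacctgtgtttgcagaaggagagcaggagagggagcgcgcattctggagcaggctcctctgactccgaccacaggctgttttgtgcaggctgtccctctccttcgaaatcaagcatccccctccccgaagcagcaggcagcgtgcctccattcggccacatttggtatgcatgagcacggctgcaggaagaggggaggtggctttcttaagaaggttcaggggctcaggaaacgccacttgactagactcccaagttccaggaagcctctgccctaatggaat

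Cacna2d3 encodes an alpha2delta subunit, an extracellular partner that brings voltage-gated calcium channels to the cell surface and is best known in neurons. It was at 4.92, 5.04, 4.76 and 5.35 on aorta replicates 1 to 4. On the ductus arrays it was at 2.33, 2.43, 2.58 and 2.21. The tissues were far apart and each was tight. The difference was -2.63 ± 0.146 (a 6.17-fold excess in the aorta, adjusted p = 1.91e-05). All 4 ductus values lay under the first quartile of every array, so the fold is not exact. The gene has 1 probe set in the annotation used, so no second probe set could be compared. Its call was kept without each array in turn, with adjusted p of at most 0.000223.

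Atp2b2 encodes PMCA2, a fast plasma membrane calcium pump known from hair cells and neurons. It was at 6.00, 5.77, 5.24 and 5.59 in the aorta. In the ductus it was at 4.23, 3.75, 3.67 and 3.86. Every aorta array lay above every ductus array. The difference was -1.77 ± 0.183 (a 3.41-fold excess in the aorta, adjusted p = 0.000726). The other 2 probe sets of Atp2b2 had small differences of -0.04 and -0.23 and were not called. The first of these was between 2.94 and 3.90 on all arrays. The other was between 2.15 and 2.70, under the first quartiles, and did not overlap between the tissues. At such low signal they say little about the difference. Averaged over its probe sets, Atp2b2 was still called, with a difference of -0.68 (adjusted p = 0.0153).

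Marker genes of cells on the outer and inner vessel surface also differed between the tissues. The mean of the 8 mesothelial markers was 7.89 to 9.36 on the aorta arrays and 6.40 to 7.03 on the ductus arrays. The mean of 10 endothelial markers was 7.82 to 8.23 and 7.36 to 7.64, with 3 higher in the aorta. Of the endothelial markers, Erg went the other way, without overlap and without passing (0.73 ± 0.179, adjusted p = 0.0595). None of the mesothelial or endothelial markers was near the first quartile on all arrays. Over the aorta arrays, Atp2b2, the mesothelial mean and the endothelial mean were all highest on replicate 1 and lowest on replicate 3. Cacna2d3 was highest on replicate 4 and also lowest on replicate 3. Over the ductus arrays the orders differed. Atp2b2 and the mesothelial mean were both highest on replicate 1 (4.23 and 7.03). Atp2b2 was lowest on replicate 3 (3.67), where the endothelial mean was highest (7.64), and the mesothelial mean was lowest on replicate 4 (6.40). The part of these cells in both results was not tested.

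**Figure D3:**
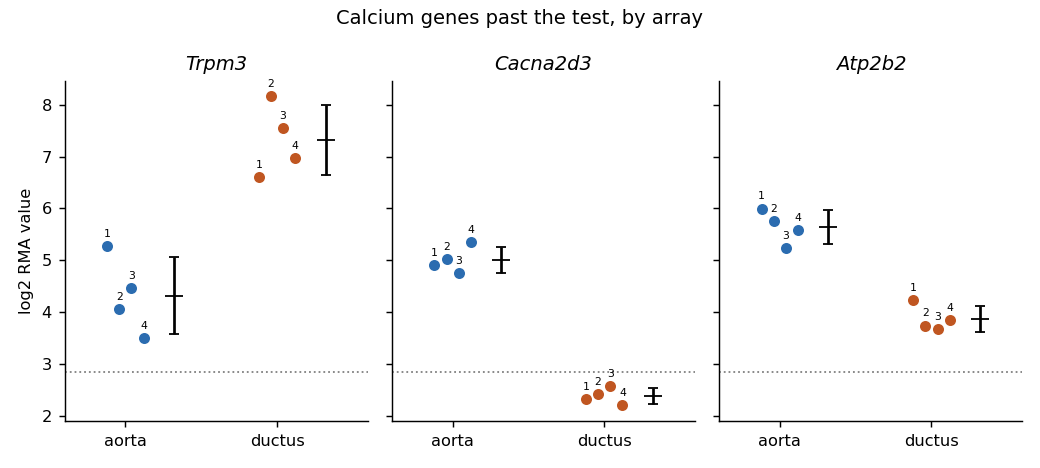
Log2 RMA values of Trpm3, Cacna2d3 and Atp2b2 on 4 aorta (blue) and 4 ductus arrays (orange), with replicate numbers, the mean and SD (black) and the highest first quartile of any array, 2.86 (dotted). No gene overlaps between the tissues, and the Cacna2d3 values of the ductus lie under the dotted line.

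The promoter window of Cacna2d3 and 1 of the 3 Atp2b2 windows, the one with matches, are shown as for Trpm3. Matches to GCCNNNGGC are in capitals. Cacna2d3 has 1 listed start, at chr14:29721815-29722114 on the minus strand, and its window holds none of the 3 motifs. Atp2b2 has 3 listed starts on the minus strand of chromosome 6. The middle window, chr6:113934632-113934931, holds GCCNNNGGC at 2 places, and the other 2 windows, which are not printed, hold none of the motifs. Of the windows of the calcium genes, 18 of 73 hold GCCNNNGGC (24.7%). A match is a description and not a shown binding site.
Cacna2d3 start: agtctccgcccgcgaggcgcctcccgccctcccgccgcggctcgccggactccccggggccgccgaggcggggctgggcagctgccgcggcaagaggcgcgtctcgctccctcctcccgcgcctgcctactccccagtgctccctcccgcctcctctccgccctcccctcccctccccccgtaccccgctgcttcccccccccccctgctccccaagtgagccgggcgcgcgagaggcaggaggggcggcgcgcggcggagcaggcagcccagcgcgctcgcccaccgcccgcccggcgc
Atp2b2 middle start: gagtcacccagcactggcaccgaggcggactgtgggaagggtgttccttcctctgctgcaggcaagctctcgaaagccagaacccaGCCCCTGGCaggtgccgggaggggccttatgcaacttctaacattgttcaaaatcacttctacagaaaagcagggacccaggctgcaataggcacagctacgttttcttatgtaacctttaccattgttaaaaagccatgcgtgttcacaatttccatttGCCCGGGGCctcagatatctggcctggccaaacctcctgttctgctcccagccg

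Among the pores of voltage-gated channels, none passed the test. Cacna1c forms the main L-type channel of arterial muscle. It was at 8.16, 8.39, 8.68 and 7.53 in the aorta, and at 8.85, 8.91, 8.57 and 8.88 in the ductus. Of the ductus arrays, 3 lay above all aorta arrays, and ductus replicate 3 fell within the aorta range. The difference, 0.61 ± 0.221, did not pass (unadjusted p = 0.0206, adjusted p = 0.198). The other Cacna1c probe set differed by 0.07 ± 0.138. Cacna1d, a further L-type pore that opens at more negative voltage, was at 6.32, 7.12, 7.10 and 7.12 in the aorta and 6.34, 6.5999, 6.91 and 5.98 in the ductus. Its difference was -0.46 ± 0.239 (adjusted p = 0.395). The L-type pores of retina and skeletal muscle, Cacna1f and Cacna1s, were between 2.22 and 2.84 on all arrays.

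T-type channels open at low voltage and are known in vascular muscle and pacemaker cells. Cacna1g was at 5.24, 6.13, 6.02 and 4.69 in the aorta and 5.88, 5.89, 6.80 and 6.06 in the ductus. The arrays overlapped, and the difference was 0.64 ± 0.333 (adjusted p = 0.393). Cacna1h was at 3.03, 3.27, 3.37 and 3.33 in the aorta and 3.37, 2.99, 3.44 and 3.65 in the ductus, with a difference of 0.11 ± 0.152 (adjusted p = 0.789). The pores of P/Q, N and R-type channels, which act at nerve endings, gave differences of 0.08 to 0.19, and 0 of 3 passed.

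Of the 15 measured auxiliary subunits, Cacna2d3 alone was called. Cacna2d1, the alpha2delta subunit of muscle, was at 9.66, 9.49, 9.76 and 9.10 in the aorta and 9.66, 9.77, 9.89 and 9.69 in the ductus. The difference was 0.25 ± 0.15 (adjusted p = 0.466). The other alpha2delta genes, Cacna2d2 and Cacna2d4, differed by -0.11 and 0.001. The 3 beta subunits, which sit inside the cell and aid channel assembly, differed by -0.16 to 0.28. Cacnb2, the main beta subunit of heart, was at 3.34, 3.46, 3.59 and 3.21 in the aorta and 3.53, 3.41, 3.64 and 3.63 in the ductus (0.15 ± 0.116, adjusted p = 0.587). Of the 8 gamma subunits and related AMPA receptor partners, 7 had negative differences, the lowest -0.40, and none passed.

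Release channels of the store differed in direction from gene to gene. Ryr3, a ryanodine receptor found at low levels in many tissues, was at 3.14, 3.52, 3.05 and 3.21 in the aorta. In the ductus it was at 4.10, 4.21, 4.65 and 3.41. Ductus replicates 1 to 3 lay above the aorta range and replicate 4 lay inside it. The difference, 0.86 ± 0.237, did not pass (adjusted p = 0.0875), but it did without ductus replicate 4 (1.09, adjusted p = 0.0157) and after centring each array on its median (0.90, adjusted p = 0.0328). All 3 Ryr3 probe sets had positive differences.

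Ryr2, the ryanodine receptor of heart and also of smooth muscle, leaned the other way. It was at 7.51, 6.94, 7.08 and 6.76 in the aorta and 5.81, 6.91, 6.12 and 6.55 in the ductus. The tissues overlapped at ductus replicate 2 and aorta replicate 4, and the difference was -0.73 ± 0.246 (adjusted p = 0.167). Ryr1, the skeletal muscle form, was between 3.54 and 3.82 on every array but ductus replicate 3, where it was 6.596. Its difference was 0.78 ± 0.590 (adjusted p = 0.589) with that array and 0.05 without it.

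Of the inositol trisphosphate receptors, Itpr2 and Itpr3 were measured, and neither passed. Itpr3 was at 5.30, 5.11, 4.20 and 4.51 in the aorta and 3.95, 3.79, 4.14 and 3.57 in the ductus. The tissues did not overlap, by a narrow gap between aorta replicate 3 and ductus replicate 3. The difference was -0.92 ± 0.243 (adjusted p = 0.0771), and it passed without aorta replicate 3 (-1.11, adjusted p = 0.0259). Itpr3 shared its highest aorta array (replicate 1) and its lowest (replicate 3) with both the mesothelial and the endothelial mean, and the part of those cells was not tested. Itpr2 was at 7.48, 7.59, 7.28 and 7.56 in the aorta and 7.07, 7.08, 7.41 and 7.09 in the ductus, with a difference of -0.31 ± 0.122 (adjusted p = 0.239).

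SERCA pumps and their regulators did not pass. Atp2a2, the SERCA of heart and smooth muscle, was at 11.77, 11.78, 11.91 and 11.84 in the aorta and 11.98, 11.95, 11.97 and 12.06 in the ductus. All ductus arrays lay above all aorta arrays, by a difference of only 0.17 ± 0.091 (adjusted p = 0.421). Its 6 probe sets all had positive differences. Atp2a1, the SERCA of fast skeletal muscle, was at 3.99, 3.73, 4.20 and 4.18 in the aorta and 3.73, 4.00, 5.57 and 4.31 in the ductus. Its difference of 0.38 ± 0.346 (adjusted p = 0.670) became -0.01 without ductus replicate 3.

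Casq2, a calcium buffer of the heart and slow muscle store, was at 5.58, 5.81, 5.55 and 6.35 in the aorta and 6.28, 5.56, 8.35 and 5.57 in the ductus. Its difference was 0.62 ± 0.552 (adjusted p = 0.660), and -0.02 without ductus replicate 3. Casq1, the fast muscle buffer, was at 4.57, 3.99, 4.35 and 4.51 in the aorta and 4.66, 4.51, 5.07 and 5.01 in the ductus (0.46 ± 0.173, adjusted p = 0.221). Ryr1, Casq2 and Atp2a1 thus had their highest value on ductus replicate 3, as did 14 of the 16 skeletal muscle markers. So did 8 of the 10 smooth muscle markers, with a mean of 10.82 there and 10.62 on the next highest array. In all, 13 of the 70 calcium genes were highest on that array. Cacna1s and Cacng1, channel subunits of skeletal muscle, were not: they were at 2.37 and 3.30 there, Cacna1s under the first quartiles. On that array, the embryonic myosin heavy chain Myh3 was 17.1-fold and Ryr1 6.85-fold above the next highest array. Sln, a small SERCA inhibitor, was at 3.12, 3.04, 2.95 and 3.83 in the aorta and 4.04, 2.67, 4.21 and 2.94 in the ductus, also highest on replicate 3, with a difference of 0.23 ± 0.358 (adjusted p = 0.821) that became -0.018 without that array.

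Pln, the micropeptide phospholamban that slows SERCA, was the store gene with the widest aorta spread. It was at 7.19, 4.72, 4.94 and 6.56 in the aorta and 6.25, 5.92, 6.03 and 5.84 in the ductus. Aorta replicates 1 and 4 lay above the whole ductus range and replicates 2 and 3 below it. The difference was 0.16 ± 0.495 (adjusted p = 0.919), and it was negative for the other 2 probe sets. In 11 of the 14 heart muscle markers, aorta replicates 1 and 4 also lay above replicates 2 and 3. Myh6, the atrial myosin heavy chain, was at 7.43 and 7.38 on replicates 1 and 4, and at 4.85 and 5.31 on replicates 2 and 3. In the ductus Myh6 was at 7.67, 6.23, 6.40 and 6.08. Its highest value of all was thus on ductus replicate 1, where Pln was at 6.25, below aorta replicates 1 and 4. Ryr2 and Atp2a2, also genes of heart muscle, did not share the aorta pattern. Ryr2 was lowest of the aorta arrays on replicate 4 (6.76) and Atp2a2 on replicate 1 (11.77). The part of heart or skeletal muscle in these store genes was not tested.

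**Figure D4:**
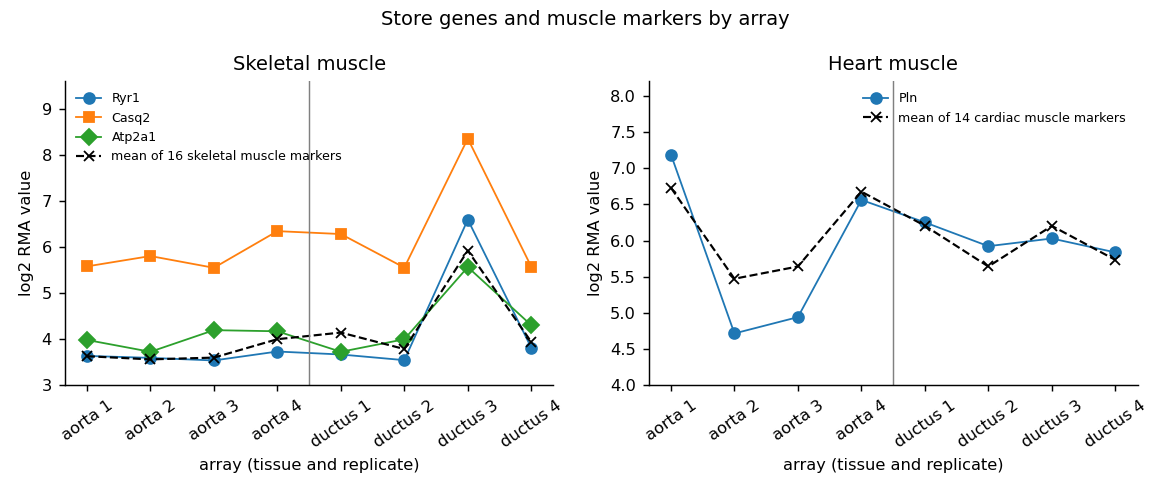
Log2 RMA values by array of Ryr1, Casq2 and Atp2a1 with the mean of 16 skeletal muscle markers (left), and of Pln with the mean of 14 heart muscle markers (right). On the left all 4 lines peak at ductus replicate 3, and on the right both lines are high on aorta replicates 1 and 4 and low on aorta replicates 2 and 3.

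Of the routes that clear calcium from the cell, Atp2b2 alone was called. Atp2b1, the most widespread plasma membrane pump, was at 10.69, 10.59, 10.81 and 10.37 in the aorta and 10.33, 10.51, 10.47 and 10.51 in the ductus. The difference was -0.16 ± 0.118 (adjusted p = 0.583). Its other 2 probe sets gave differences of -0.60 and -0.69. Atp2b1 was called higher in the aorta when the most variable probe set stood for it (-0.69, adjusted p = 0.0488) and with the mean over its probe sets (-0.48, adjusted p = 0.0126), so its result depends on the probe set. Atp2b4, the pump abundant in smooth muscle, was at 10.33, 9.94, 10.12 and 10.25 in the aorta and 10.09, 10.55, 10.03 and 10.06 in the ductus (0.02 ± 0.147, adjusted p = 0.967). Slc8a1, the main sodium-calcium exchanger of heart and vessel, was at 7.35, 7.52, 7.35 and 7.70 in the aorta and 7.30, 7.04, 7.47 and 7.10 in the ductus (-0.25 ± 0.134, adjusted p = 0.402). The Golgi pumps Atp2c1 and Atp2c2 differed by -0.05 and -0.26, and neither passed.

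Store-operated entry showed 0 called genes of 5 by limma, 2 of them with an unadjusted p under 0.05. Orai1, the pore, was at 6.05, 5.95, 5.72 and 6.35 in the aorta and 5.42, 5.55, 5.70 and 5.55 in the ductus. The tissues just failed to overlap, and the difference was -0.46 ± 0.143 (adjusted p = 0.130). Stim2, a sensor of store calcium, was at 8.26, 8.40, 8.05 and 8.45 in the aorta and 8.01, 7.58, 8.26 and 7.76 in the ductus (-0.39 ± 0.163, adjusted p = 0.281). The main sensor, Stim1, was at 5.89, 5.79, 5.98 and 6.05 in the aorta and 5.74, 5.86, 5.91 and 5.89 in the ductus, with a difference of -0.08 ± 0.101 (adjusted p = 0.786).

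Of the 6 TRPC channels, which open downstream of receptors that activate phospholipase C, none passed. Trpc1 was at 6.44, 6.81, 7.41 and 6.47 in the aorta and 7.43, 7.43, 7.27 and 7.55 in the ductus. Aorta replicate 3 reached the ductus range, and the other 3 aorta arrays lay below it. The difference was 0.64 ± 0.204 (adjusted p = 0.140), and without aorta replicate 3 it passed (0.85, adjusted p = 0.0113). Trpc4 was at 2.75, 2.98, 3.10 and 2.87 in the aorta and 2.80, 2.58, 2.71 and 2.89 in the ductus (-0.18 ± 0.117, adjusted p = 0.511). Trpc6, a receptor-operated channel of arterial muscle, was at 2.68, 2.79, 2.70 and 3.17 in the aorta and 2.56, 2.42, 2.95 and 2.35 in the ductus (-0.27 ± 0.164, adjusted p = 0.482). Both lay about the first quartiles. Trpc2 differed by -0.42 ± 0.210, and 2 further probe sets, not used here, carry Trpc2 together with another symbol.

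Outside Trpm3, none of the other 7 TRPM genes was called. Trpm7, a channel joined to a kinase that also carries magnesium, was at 7.10, 7.46, 7.36 and 7.504 in the aorta and 7.71, 7.70, 7.70 and 7.44 in the ductus. The difference was 0.28 ± 0.124 (adjusted p = 0.304), and 2 of its 4 probe sets had the opposite sign. Trpm4, a calcium-activated sodium channel of arterial muscle, was at 5.74, 6.40, 5.81 and 5.72 in the aorta and 5.40, 5.05, 6.01 and 5.25 in the ductus (-0.49 ± 0.227, adjusted p = 0.328). Trpm1, the channel of retinal bipolar cells, was at 2.74, 2.67, 3.08 and 2.87 in the aorta and 2.27, 2.58, 2.42 and 2.46 in the ductus. The tissues did not overlap, but the values lay about the first quartiles (-0.41 ± 0.122, adjusted p = 0.116). Among TRPV genes, Trpv4, which responds to osmotic and shear stress, was at 3.67, 3.88, 3.55 and 3.34 in the aorta and 3.16, 3.21, 3.14 and 3.49 in the ductus (-0.36 ± 0.141, adjusted p = 0.237). Trpv6, a calcium channel of absorbing epithelia, was at 3.04, 2.57, 2.97 and 2.95 in the aorta and 2.64, 2.57, 2.51 and 2.48 in the ductus (-0.33 ± 0.124, adjusted p = 0.216). Trpv2 was at 2.72, 2.95, 3.00 and 3.87 in the aorta and 3.46, 3.63, 3.25 and 3.11 in the ductus (0.23 ± 0.237, adjusted p = 0.711). Trpa1, the irritant receptor, was between 2.10 and 2.67 on all arrays.

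Other genes of calcium signalling came from a list written from textbook knowledge, with earlier results of these data known. It held calmodulin kinases, calcineurin and NFAT, phospholipases C, mitochondrial and lysosomal channels, junction proteins and channel regulators. Among its 67 measured genes, 7 were called, compared with 3.86% of all genes: 3 rose in the ductus against the aorta (1.8% of all genes) and 4 fell (2.06%). The median log2 difference of the 67 was -0.09, against -0.03 over all genes. Because earlier results were known when the list was written, these shares cannot be read as a property of the pathway. The count without 1 array was 3 without aorta replicate 2 or ductus replicate 4, 4 without aorta replicate 4 or ductus replicate 1, 2 or 3, and 7 or 8 without the others. Gem, Camk2d and Plcb1 were called in each of these.

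Gem, Rem2 and Rrad are RGK proteins, small GTPases that bind the beta subunit and inhibit voltage-gated calcium channels. Gem was at 6.34, 6.80, 7.16 and 6.42 in the aorta and 7.92, 7.66, 7.81 and 8.19 in the ductus (1.21 ± 0.195, 2.32-fold, adjusted p = 0.00828). Rem2 was at 3.46, 3.25, 3.51 and 3.19 in the aorta and 3.99, 4.40, 3.90 and 4.33 in the ductus (0.80 ± 0.144, adjusted p = 0.0147). Rrad was the reverse, at 4.45, 5.28, 5.49 and 4.97 in the aorta and 3.90, 4.00, 4.03 and 4.20 in the ductus (-1.02 ± 0.205, adjusted p = 0.0250). None of the 3 overlapped between the tissues. Without aorta replicate 2 or ductus replicate 4, Rem2 did not pass (adjusted p = 0.0525 and 0.0520). Rrad passed only without aorta replicate 1 or 3, with adjusted p of up to 0.0794 without any other array.

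Subunits of calmodulin-dependent kinase II were called in opposite directions. Camk2d, the isoform of heart and vascular muscle, was at 7.53, 7.86, 8.05 and 7.13 in the aorta and 8.71, 8.54, 8.86 and 8.78 in the ductus (1.08 ± 0.191, 2.12-fold, adjusted p = 0.0130). All 7 of its probe sets had positive differences, and 2 of them were called at the level of probe sets. Camk2b was at 5.04, 5.61, 4.39 and 5.01 in the aorta and 3.96, 4.19, 4.00 and 4.08 in the ductus (-0.96 ± 0.220, adjusted p = 0.0451), and it passed without aorta replicate 3 but not without any other array (adjusted p of 0.0721 to 0.119). Plcb1, a phospholipase C that makes inositol trisphosphate downstream of Gq, was at 6.70, 7.01, 6.90 and 6.71 in the aorta and 5.66, 5.77, 5.87 and 6.11 in the ductus (-0.98 ± 0.129, a 1.97-fold excess in the aorta, adjusted p = 0.00274). Its 5 probe sets all had negative differences, and 1 of them was called at the level of probe sets. Bcl2, a survival protein that also binds inositol trisphosphate receptors, was at 6.93, 7.60, 6.99 and 7.45 in the aorta and 6.35, 6.55, 6.26 and 6.54 in the ductus (-0.82 ± 0.169, adjusted p = 0.0273). It was not called with the mean over its probe sets (adjusted p = 0.0598) or its most variable probe set (-0.49, adjusted p = 0.396) and, leaving out arrays, only without aorta replicate 1 or 3.

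**Figure D5:**
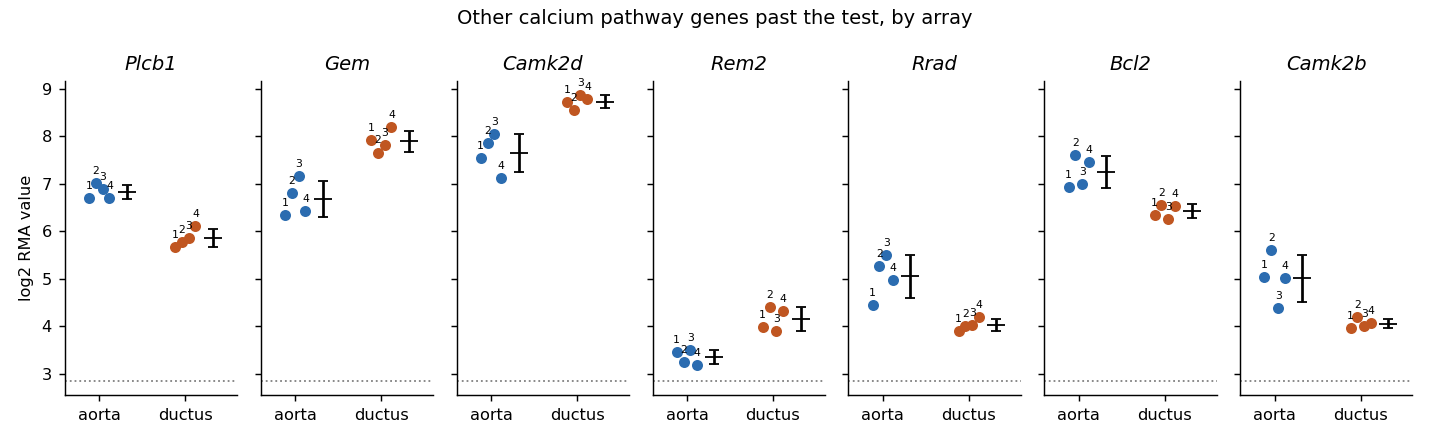
Log2 RMA values of the 7 called genes of the wider calcium pathway on 4 aorta (blue) and 4 ductus arrays (orange), with replicate numbers, the mean and SD (black) and the highest first quartile of any array, 2.86 (dotted). Gem, Camk2d and Rem2 are higher in the ductus, Plcb1, Rrad, Bcl2 and Camk2b are higher in the aorta, and the tissues overlap in none of them.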

How the data were processed

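Total RNA of pooled fetal vessels was hybridised to Affymetrix arrays. The authors deposited log2 values. Partek 6.6 and RMA are listed in the submitters' processing notes, without their settings. Per the labels' protocols RNA was extracted with Trizol, whereas the series' design text names a Versagene kit. Of 45101 probe sets, 64 controls, 9160 without a listed gene and 932 with several symbols were left out. Of the 34945 others, 34741 were matched to RefSeq by gene ID and took the RefSeq symbol, whether or not it differed, and 204 kept their platform symbol. No filter on low values was applied.

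Ductus minus aorta was tested with limma 3.58.1 in R 4.3.3 (lmFit, eBayes, two-sided, no covariate) over all 18193 genes, with Benjamini-Hochberg adjustment. Errors are model standard errors unless stated. The script was tested on simulated arrays. The number of arrays limits the precision, and the p-values reflect differences among pools of litters. Every gene of the rule could be named. Its 8 values are given if it was called, had an unadjusted p under 0.05 or was on a short list of well-known genes. Of the wider list, the called genes were named. The rule used symbols and not measured values, but members and lists were chosen with earlier results of these data known.

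Deviations from the tissue means correlated at -0.23 to -0.07 between same-numbered arrays and at -0.25 to 0.34 between differently numbered ones. This cannot show whether litters were shared, because the pools also differed in markers of other tissues. No pairing was used in the main fit. Promoter and microRNA sequences are from RefSeq (57 of 70 genes matched).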

Additional observations from a re-analysis of the deposited data

Results flagged for a closer look

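In 6 of 84 groups of 4 arrays examined (42 genes in 2 tissues), 1 array stood apart from the other 3 by more than Dixon's limit, which chance alone passes in about 5% of groups. The largest gap was in Ryr1, at 6.596 on ductus replicate 3 against 3.55 to 3.82 on the other ductus arrays. Itpr2 was also high on that array (7.41 against 7.07 to 7.09). Atp2b4 was high on ductus replicate 2 (10.55 against 10.03 to 10.09) and Trpm7 low on ductus replicate 4 (7.44 against 7.70 to 7.71). In the aorta, Cacna1d was low on replicate 1 (6.32 against 7.10 to 7.12) and Trpm4 high on replicate 2 (6.40 against 5.72 to 5.81).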

How the results depend on the processing

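Trpm3, Cacna2d3 and Atp2b2 kept their direction and call under each alternative in which they were tested. Cacna2d3 was not tested without the lowest 40% of genes, and neither it nor Atp2b2 among genes with a mean of at least log2 5, where 1 calcium gene and 4 of the wider list were called. Leaving out single arrays gave 443 to 705 called genes in all (443 without aorta replicate 2 and 454 without ductus replicate 4), 3 to 5 calcium genes and 3 to 8 of the wider list. With a 2-fold minimum, 388 genes in all and 3 of the wider list remained. With the replicate number as a block, 403 genes were called in all, with the same 3 calcium genes and 5 of the wider list. Small differences of uncalled genes changed sign. With the most variable probe set of each gene, they were -0.16 (Cacna1h), -0.14 (Cacna2d1), 0.039 (Itpr2), -0.58 (Pln), 0.18 (Stim1) and -0.030 (Trpm7), and with the mean over probe sets -0.023 (Cacna1h), -0.19 (Pln) and 0.050 (Stim1). Repeated quantile normalization gave -0.022 for Atp2b4. Leaving out single arrays gave -0.010 to 0.60 for Atp2a1, -0.10 to 0.078 for Atp2b4, -0.017 to 0.92 for Casq2, -0.22 to 0.60 for Pln and -0.018 to 0.49 for Sln. The cause was not tested.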

Other observations

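Cacna1e and Cacng8, not described above by array, were uneven within each tissue. Cacna1e, the R-type pore, was at 4.70 on aorta replicate 4 and 4.80 on ductus replicate 1, and between 3.24 and 4.08 on the other arrays. Its second probe set, under the first quartiles at 2.40 to 2.66, did not stand out on these arrays (2.63 and 2.58). Cacng8, an AMPA receptor partner, was at 6.55 on aorta replicate 4 and between 4.73 and 5.86 on the others. The second Cacng8 probe set was between 3.11 and 3.78 on all arrays, at 3.65 on aorta replicate 4. The mean of 8 thymocyte markers was highest on the same 2 arrays as Cacna1e, at 6.96 and 7.69, against 3.72 to 6.48 on the others. Cacng8 did not share both: on ductus replicate 1 it was at 5.50, below ductus replicates 2 (5.60) and 4 (5.86). The part of thymus tissue in the Cacna1e values was not tested.

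The loci of the called calcium genes are long. By the RefSeq table, Trpm3 (858 kb) and Cacna2d3 (818 kb) have the longest and the next longest locus of the 70 genes, whose median is 68.8 kb, against 20.3 kb over the 18031 genes with a length. Atp2b2 spans 299 kb.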
